A study of Oryctolagus cuniculus with 4 samples.

Results

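The collagen chains and the enzymes that modify them were described in single-cell RNA sequencing libraries of rabbit ear hypertrophic scar (HS), a raised scar with excess dermal collagen. Members were chosen by a rule on gene symbols, with earlier results of these data known. The rule took every gene with the symbol of a collagen chain (COL followed by chain numbers). It also took the prolyl 4-hydroxylases (P4HA, P4HB), lysyl hydroxylases (PLOD) and lysyl oxidases (LOX, LOXL). Procollagen C-proteinase enhancers (PCOLCE), the collagen chaperone SERPINH1 and the collagen galactosyltransferases (COLGALT) completed the rule. The cartilage chains COL2A1, COL9A1, COL9A2 and COL11A2 were left out by that rule. This gave 33 members among 13913 genes, namely 6 fibrillar chains, 7 chains of the basement membrane and its anchorage, 12 other chains and 8 enzymes. Several genes of the pathway, including SERPINH1, P4HB, PLOD1, PLOD3, COL5A1, COL6A1, COL6A3 and COL7A1, were not analysed here. Of the 13913 genes, 3706 carried no symbol, and any collagen gene among them was missed by the rule.

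The libraries came from female wild-type rabbits, 10 to 12 weeks old at purchase, with scars grown from round wounds of 7 mm on the ventral ear. HS tissue (2 libraries) was left untreated. Drug-loaded MNs tissue (2 libraries) received separating microneedles (MNs), patches with gelatin-based tips that remain in the tissue and release a 5-fluorouracil derivative from a peptide prodrug, 3 times at weekly intervals from day 22, and all tissue was taken on day 43. Each library came from 1 piece of ventral epidermis and dermis, and whether the pieces of a group came from separate rabbits was not given, so p-values measure only the spread between these libraries. No library with drug-free MNs was analysed here, so the needle and the drug cannot be told apart.

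Collagens are secreted proteins of chains wound around each other. Fibrillar collagens (types I, III and V, with XI and XXIV as minor types) form the rope-like fibrils of the dermis, type IV forms the sheet under epithelium and around vessels, and other types link fibrils, anchor cells or span cell membranes. Inside the cell, prolyl 4-hydroxylases make the helix stable and lysyl hydroxylases prepare sites for cross-links. Outside the cell, propeptides are cut off and lysyl oxidases join the molecules. In scars, fibroblasts make most of the fibrillar chains, and type III collagen is known from early wound tissue.

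Values are relative expression: each library was scaled to a total of 1000000, and 1 unit is 1 part of that total. The depth behind the values was unknown. The libraries listed 11844 to 12059 genes above 0. Values were not known to be corrected for gene length, so they are compared between libraries and not between genes. Of the 33 members, 32 had a mean of at least 1 unit and were tested with all 9348 such genes in limma, on log2(units + 1). COL22A1, which is known from tissue junctions, was the exception, with at most 0.248 units in any library. The share of mitochondrially encoded genes was 2.75% and 2.80% in HS but 4.37% and 4.58% in drug-loaded MNs, and their part in the differences below was not tested. Of these 13 genes, 4 were listed at 0 in every library. COX2, the largest part of the sum, overlapped between groups, and the other 8 were higher in both treated libraries.

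Most collagen genes had higher values in drug-loaded MNs than in HS. Of the 32 tested members, 30 had a log2 fold change above 0 and 2 (COL28A1 and PLOD2) below it, where 64.6% of all tested genes lay above 0. The members' median log2 fold change was 0.70, against 0.12 over all tested genes. In 20 members both drug-loaded MNs libraries lay above both HS libraries, and in none below; over all tested genes these shares were 26.6% and 11.2%. A log2 fold change above 1 was found in 7 members, against 2.78% of all tested genes. No member passed an adjusted p of 0.05 in limma, where 4 of 9348 genes did (0.0428%), and the smallest adjusted p of a member was 0.264. At an unadjusted p under 0.05, limma gave 16 members higher and 0 lower, against 7.26% higher and 1.39% lower over all tested genes. Without drug-loaded MNs replicate 1, the 16 members higher became 9, and the share over all tested genes became 3.94%. Without HS replicate 2, 14 members were higher and 2 lower (COL11A1 and PCOLCE2), against 12.7% and 2.41% of all tested genes. With the replicate number as a block in limma, 10 members passed the adjusted threshold, as did 2.58% of all tested genes, but nothing in the labels ties same-numbered libraries to each other. Under median ratio scaling, where the shares over all genes were 5.32% higher and 2.97% lower, 13 members were higher and 0 lower, and 29 of 32 lay above 0. Under quantile normalization these shares were 4.59% and 3.17%, again with 13 members higher and 0 lower.

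**Figure D1:**
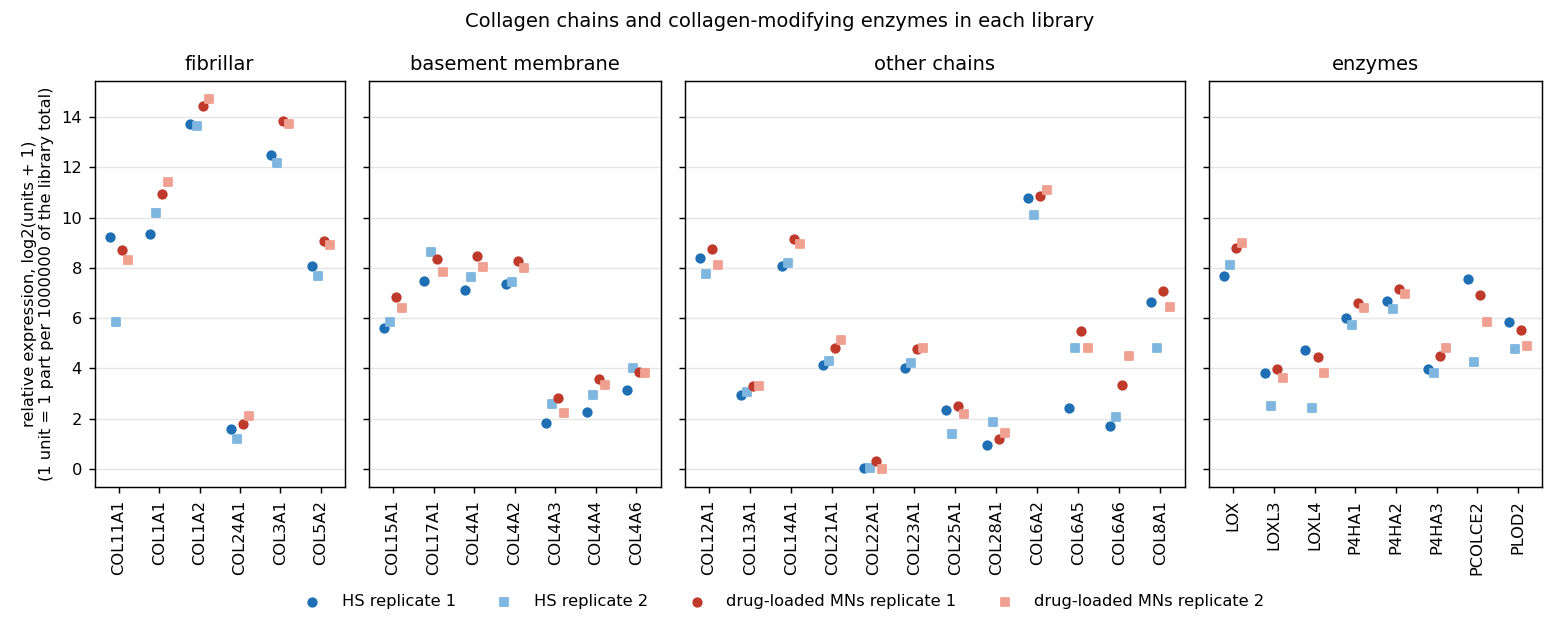
Relative expression of each of the 33 members on a log2(units + 1) axis, in 4 panels by class, with 1 point per library (blue for HS, red for drug-loaded MNs, circles for replicate 1 and squares for replicate 2). In 20 tested members both red points lie above both blue points, and in COL11A1, PCOLCE2 and COL6A5 the blue points lie farthest apart.

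Fibrillar chains had the highest class median, a log2 fold change of 1.04 over 6 members, all of them above 0. COL3A1 (ENSOCUG00000014988), the single chain of type III collagen, stood at 5717 and 4657 units in the HS libraries and at 14786 and 13577 units in the drug-loaded MNs libraries. Both treated libraries were above both untreated ones by more than the spread within either group. The means were 5187 ± 749 and 14181 ± 855 units (SD, n = 2 each). This was a log2 fold change of 1.46 ± 0.28 (SE, adjusted p of 0.264 in limma), the smallest adjusted p among the members.

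COL1A1 (ENSOCUG00000012881) and COL1A2 (ENSOCUG00000012264) encode the chains of type I collagen, the main collagen of dermis. COL1A1 was at 649 and 1179 units in HS and at 1946 and 2722 units in drug-loaded MNs, a log2 fold change of 1.39 ± 0.34 (SE, adjusted p of 0.316 in limma). COL1A2 was at 13738 and 12946 units in HS and at 22256 and 26648 units in drug-loaded MNs, a log2 fold change of 0.87 ± 0.30 (SE, adjusted p of 0.441 in limma). The groups of both genes were apart, but the HS libraries lay close together for COL1A2 and differed for COL1A1, where HS replicate 1 was the lower.

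COL5A2 (ENSOCUG00000015020), a chain of type V collagen, which limits fibril width, followed the same course. Its values were 272 and 204 units in HS and 541 and 486 units in drug-loaded MNs, with a log2 fold change of 1.12 ± 0.23 (SE, adjusted p of 0.296 in limma). COL24A1, a minor fibrillar chain, was low throughout, at 1.97 and 1.31 units in HS and at 2.44 and 3.34 units in drug-loaded MNs. The groups did not overlap, although the log2 fold change of 0.56 had an adjusted p of 0.721 in limma.

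COL11A1 (ENSOCUG00000013367), known from cartilage as well as from thin fibrils, was the fibrillar chain whose groups overlapped. It stood at 594 units in HS replicate 1 and at 56.9 units in HS replicate 2, with the drug-loaded MNs libraries between them at 415 and 316 units. The log2 fold change of 0.97 (SE 0.90) rested on which HS library was used: it was 2.65 without HS replicate 1 and -0.71 without HS replicate 2.

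**Figure D2:**
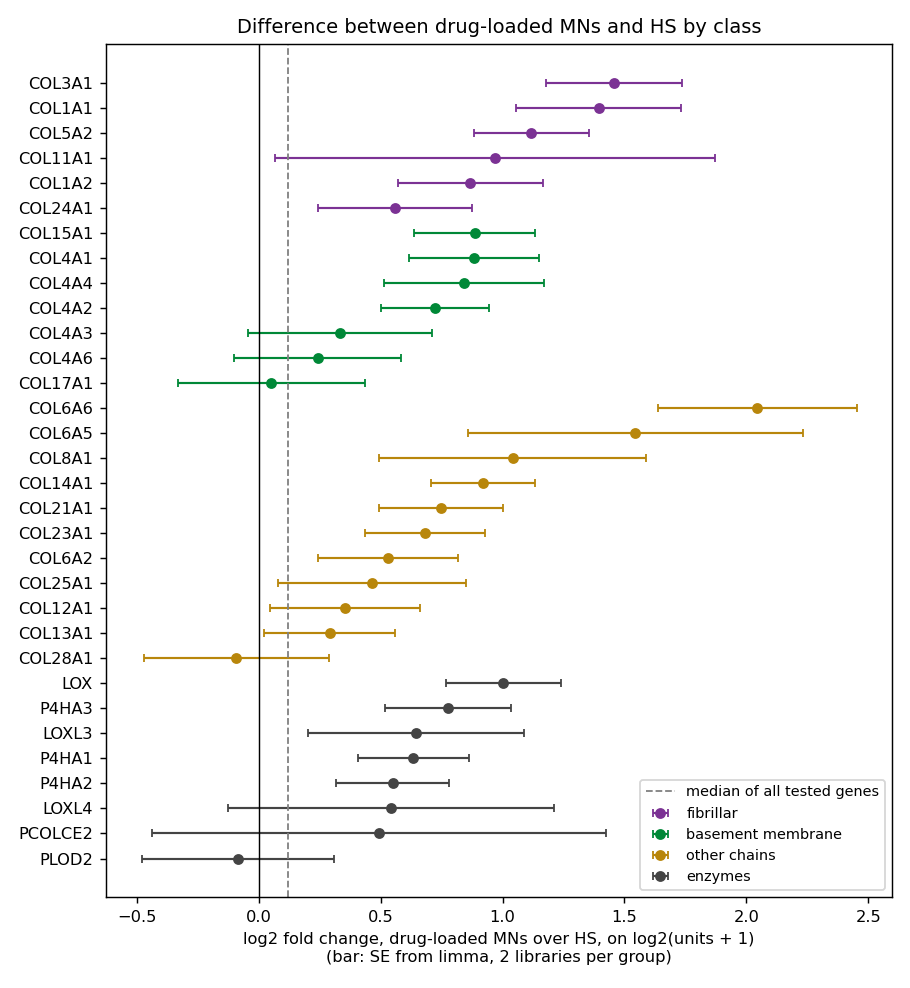
Log2 fold change of drug-loaded MNs over HS for the 32 tested members, on the log2(units + 1) scale, coloured by class, with bars for the SE from limma. Nearly all points lie to the right of the dashed line, the median of all tested genes at 0.12, and the wide bars belong to members whose HS libraries differ, such as COL11A1 and PCOLCE2.

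Basement membrane chains had a median log2 fold change of 0.72 over 7 members. COL4A1 (ENSOCUG00000013232) and COL4A2 (ENSOCUG00000013276) form the common type IV network and lay beside each other in the RefSeq gene order of the rabbit assembly mOryCun1.1. COL4A1 was at 137 and 197 units in HS and at 350 and 264 units in drug-loaded MNs, with a log2 fold change of 0.88 ± 0.27 (SE, adjusted p of 0.404 in limma). COL4A2 was at 164 and 175 units in HS and at 311 and 251 units in drug-loaded MNs, with a log2 fold change of 0.72 ± 0.22 (SE, adjusted p of 0.404 in limma). Both genes were higher in both treated libraries, with replicate 1 the higher treated library in each.

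The remaining type IV chains were low. COL4A4 was at 3.83 and 6.73 units in HS and at 10.97 and 9.02 units in drug-loaded MNs, a log2 fold change of 0.84 with groups apart (adjusted p of 0.519 in limma). Its neighbour in the gene order, COL4A3, and COL4A6, a type IV chain of skin, had overlapping groups with log2 fold changes of 0.33 and 0.24. Both of these turned negative without HS replicate 1.

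COL15A1 (ENSOCUG00000016236), which lies next to the basement membrane of small vessels, was at 47.5 and 56.8 units in HS and at 112.6 and 83.3 units in drug-loaded MNs. The groups were apart, and the log2 fold change was 0.89 ± 0.25 (SE, adjusted p of 0.352 in limma). COL17A1, a membrane-spanning chain by which basal keratinocytes hold to the basement membrane, behaved differently. It stood at 176 and 392 units in HS and at 323 and 230 units in drug-loaded MNs, so that the groups overlapped. Its log2 fold change was 0.052, below the median of all tested genes, and it was -0.092 under median ratio scaling. The summed level of 5 basal keratinocyte markers overlapped between the groups as well, at 8558 and 5890 units in HS and 8108 and 4296 units in drug-loaded MNs.

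Among the other chains, the median log2 fold change was 0.68 over 11 members, 10 of them above 0, but it was 0.36 without HS replicate 2. Type VI collagen forms beaded filaments around cells. COL6A6 (ENSOCUG00000002486), an alternative to the long chain COL6A3 of that type, was at 2.24 and 3.15 units in HS and at 9.26 and 21.3 units in drug-loaded MNs. The treated libraries were both higher, by unequal amounts, and the log2 fold change was 2.05 ± 0.41 (SE, adjusted p of 0.270 in limma). With a pseudocount of 5 in place of 1 it was 1.33, below that of COL3A1 (1.46). Without drug-loaded MNs replicate 1 it was 2.61 and without drug-loaded MNs replicate 2 it was 1.485, each time with 1 treated library left.

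COL6A5, its neighbour in the gene order and another such alternative chain, was at 4.35 and 27.2 units in HS and at 44.1 and 27.5 units in drug-loaded MNs. The groups were apart only by the small gap between HS replicate 2 and drug-loaded MNs replicate 2. Its log2 fold change of 1.54 ± 0.69 (SE, adjusted p of 0.601 in limma) was 0.35 without HS replicate 1 and 2.74 without HS replicate 2. COL6A2 (ENSOCUG00000000409), a common chain of type VI, was at 1749 and 1115 units in HS and at 1846 and 2208 units in drug-loaded MNs, with a log2 fold change of 0.53 (adjusted p of 0.709 in limma). Its groups did not overlap, but that fold change was 0.86 without HS replicate 1 and 0.21 without HS replicate 2.

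COL14A1 (ENSOCUG00000015234), COL21A1 and COL12A1 belong to the collagens that sit on the surface of fibrils. COL14A1 was at 266 and 293 units in HS and at 563 and 498 units in drug-loaded MNs, a log2 fold change of 0.92 ± 0.21 (SE, adjusted p of 0.314 in limma). COL21A1 was at 16.5 and 18.8 units in HS and at 27.1 and 33.8 units in drug-loaded MNs, a log2 fold change of 0.75 ± 0.25 (SE, adjusted p of 0.437 in limma). Both had closely matched HS libraries and groups apart. COL12A1 was at 335 and 217 units in HS and at 428 and 278 units in drug-loaded MNs, and its groups overlapped. In COL12A1 replicate 1 was the higher library of each group by a log2 difference of 0.63 in HS and 0.62 in drug-loaded MNs, more than the log2 fold change of 0.36.

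COL23A1, COL13A1 and COL25A1 are chains that span the cell membrane. COL23A1 was at 15.2 and 17.7 units in HS and at 26.4 and 27.4 units in drug-loaded MNs, a log2 fold change of 0.68 ± 0.25 (SE, adjusted p of 0.473 in limma). COL13A1 had groups apart by a narrow margin, with 6.74 and 7.37 units in HS and 8.83 and 8.87 units in drug-loaded MNs. COL25A1 and COL28A1, a chain known from peripheral nerve, were under 5 units in every library and overlapped. COL8A1, a network chain known from vessel walls, was at 99.4 and 26.9 units in HS and at 135 and 86.3 units in drug-loaded MNs. Its groups overlapped, and its log2 fold change of 1.04 was 1.96 without HS replicate 1 and 0.12 without HS replicate 2.

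The 8 enzymes had a median log2 fold change of 0.59, with 7 above 0, but the median was 0.18 without HS replicate 2. LOX (ENSOCUG00000003313), the lysyl oxidase that starts cross-links between collagen molecules, was at 206 and 273 units in HS and at 443 and 512 units in drug-loaded MNs. The groups were well apart, and the log2 fold change was 1.0 ± 0.24 (SE, adjusted p of 0.314 in limma). The other oxidases, LOXL3 and LOXL4, had overlapping groups. LOXL3 was at 13.2 and 4.62 units in HS and at 14.8 and 11.3 units in drug-loaded MNs.

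The 3 catalytic chains of prolyl 4-hydroxylase were all higher in both treated libraries. P4HA1 was at 63.4 and 52.7 units in HS and at 95.9 and 84.9 units in drug-loaded MNs, a log2 fold change of 0.63 ± 0.23 (SE, adjusted p of 0.472 in limma). P4HA2 was at 102 and 80.7 units in HS and at 144 and 123 units in drug-loaded MNs, a log2 fold change of 0.55 ± 0.23 (SE, adjusted p of 0.565 in limma). P4HA3 was at 14.6 and 13.0 units in HS and at 21.9 and 26.9 units in drug-loaded MNs, a log2 fold change of 0.78 ± 0.26 (SE, adjusted p of 0.428 in limma). In each of the 3 the step between groups was larger than the gap within either group.

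PLOD2, the lysyl hydroxylase that acts on the chain ends and is tied to stiff cross-links in fibrosis, did not follow them. It was at 55.9 and 26.2 units in HS and at 45.7 and 28.5 units in drug-loaded MNs, with a log2 fold change of -0.086 ± 0.40 (SE, adjusted p of 0.970 in limma). PCOLCE2, which helps cut the end propeptide from procollagen, varied far more between the HS libraries than between the groups, with 189 and 17.9 units in HS and 120 and 57.4 units in drug-loaded MNs. Its log2 fold change was 2.16 without HS replicate 1 and -1.17 without HS replicate 2.

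As a share of the library total, the 25 chains with a symbol together took 2.40% and 2.16% in HS against 4.42% and 4.78% in drug-loaded MNs. The means were 2.28% ± 0.169 and 4.60% ± 0.257 (SD, n = 2 each), a ratio of 2.02. COL1A2 and COL3A1 made up most of both sums. The other 23 chains took 0.455% and 0.402% in HS against 0.713% and 0.757% in drug-loaded MNs, a ratio of 1.71, so the groups were apart with and without those chains. The 8 enzymes took 0.0668% and 0.0473% in HS against 0.0906% and 0.0857% in drug-loaded MNs, a ratio of 1.55. With 2 libraries per group an exact permutation test has a smallest possible two-sided p of 0.333, and the shares were therefore not tested.

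**Figure D3:**
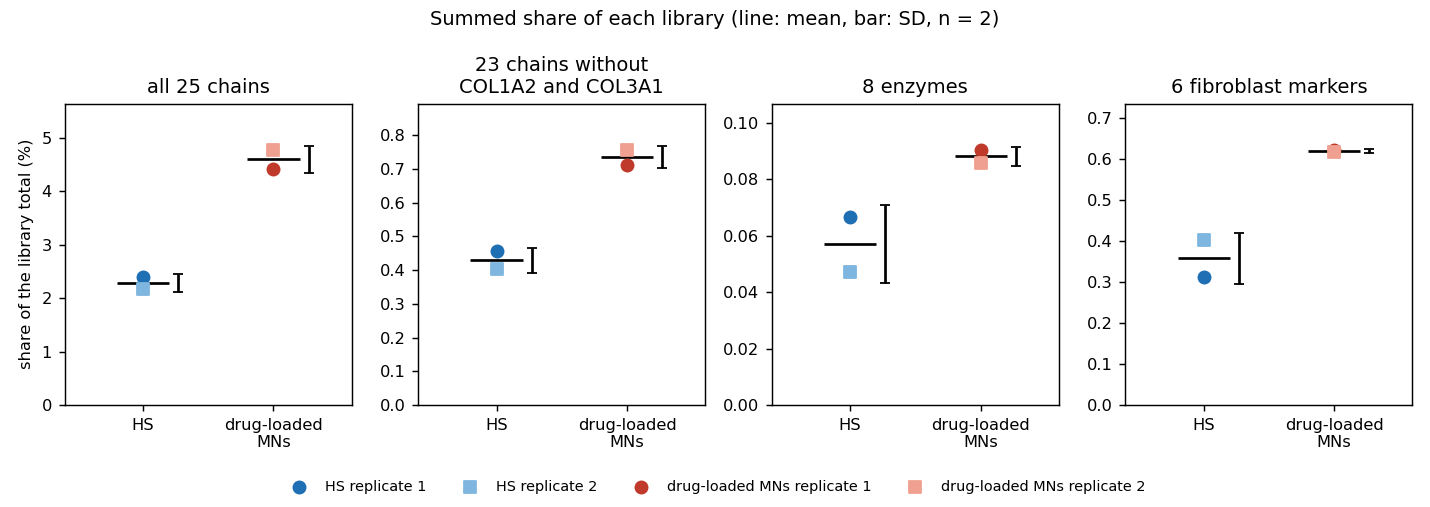
Share of the library total (%) taken by all chains, by the chains without COL1A2 and COL3A1, by the enzymes and by 6 fibroblast markers, with 1 point per library, a line at the group mean and a bar for the SD (n = 2). In all 4 panels both drug-loaded MNs libraries lie above both HS libraries. Within each group the library with the higher share of chains has the lower share of fibroblast markers.

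Fibroblast markers moved in the same direction. Of 10 listed markers that are no collagens, 6 were in the table, and their summed level was 3137 and 4027 units in HS and 6237 and 6177 units in drug-loaded MNs. All 6 were higher in both treated libraries, with a median log2 fold change of 0.92, and none was at 0. In libraries of mixed cells, more fibroblasts and more collagen RNA per fibroblast cannot be told apart. The rise was not particular to fibroblast markers. All 6 macrophage markers in the table were also higher in both treated libraries, with a median log2 fold change of 1.28. They summed to 77.7 and 95.3 units in HS and to 194 and 195 units in drug-loaded MNs. The 6 endothelial, 4 mural and 4 suprabasal keratinocyte markers had sums that overlapped between groups. Of them 4, 4 and 1 had a log2 fold change above 0, with medians of 0.22, 0.50 and -0.062. The 4 Schwann cell markers, whose sum overlapped too, were all above 0, with a median of 0.68. Over all tested genes 64.6% were above 0, with a median of 0.12. Single vessel markers differed in direction: the endothelial CDH5 (log2 fold change 0.92) and PECAM1 (0.54) and the mural ACTA2 (0.71) were higher in both treated libraries, and the endothelial VWF (-0.50) was lower in both. The part of these cell types in the collagen values was not tested.

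When every library was scaled to the 6 fibroblast markers, a scaling chosen after the values were seen, most members no longer had a log2 fold change above 0. The median log2 fold change of the members was then -0.23, with 7 of 32 above 0. Over all 9348 tested genes the median was -0.79, with 503 above 0. By class the median was 0.051 for fibrillar chains, -0.27 for basement membrane chains, -0.27 for other chains and -0.36 for enzymes. COL3A1 and COL6A6 were the members in which both treated libraries stayed above both HS libraries, where 1.36% of all tested genes did. On the log2 scale COL3A1 was then at 13.1 and 12.6 in HS against 13.3 and 13.2 in drug-loaded MNs, and COL6A6 at 2.14 and 2.36 in HS against 2.91 and 4.02 in drug-loaded MNs. In 10 members both treated libraries lay below both HS libraries, against 80% of all tested genes, among them P4HA1, P4HA2, PLOD2, COL4A2 and COL17A1. COL6A6 passed the threshold under this scaling (log2 fold change 1.21, adjusted p of 0.0406 in limma), where 53.4% of all tested genes also passed. COL1A2 (log2 fold change -0.13) and LOX (0.011) were close to the fibroblast markers.

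Ratios between members of the same library do not depend on how the library was scaled, and 5 of the 12 chosen pairs had both genes in the table. The log2 ratio of COL3A1 to COL1A2 was -1.26 and -1.47 in HS against -0.59 and -0.97 in drug-loaded MNs. The groups were apart, and the difference of 0.59 compared with a pooled SD of 0.22. The log2 ratio of COL1A1 to COL1A2 was -4.40 and -3.46 in HS against -3.52 and -3.29 in drug-loaded MNs, and there HS replicate 2 overlapped the treated libraries. Its difference of 0.53 was close to its pooled SD of 0.49, and it was 0.053 without HS replicate 1. The ratio of COL4A1 to COL4A2, whose products assemble together, differed by 0.16 between groups with overlap, less than its pooled SD of 0.22. The ratio of LOX to COL1A2 differed by 0.14 with overlap. Both of these differences changed sign without HS replicate 1, to -0.052 and -0.11. The ratio of P4HA2 to P4HA1 was 0.67 and 0.61 in HS against 0.58 and 0.53 in drug-loaded MNs, apart by a small step of -0.085.

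**Figure D4:**
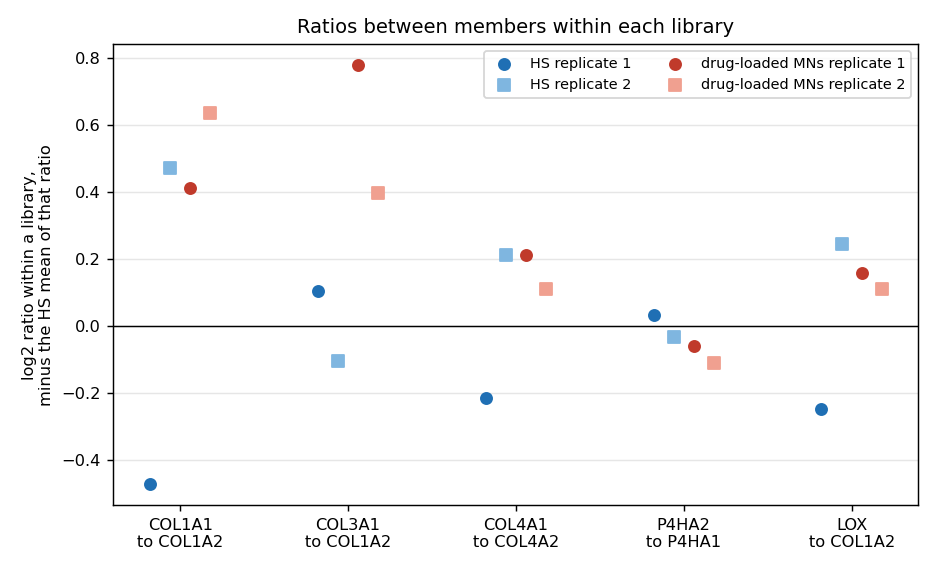
Log2 ratios between members within each library, shown as the distance from the HS mean of the same ratio, with 1 point per library. The ratio of COL3A1 to COL1A2 has the largest step between groups that do not overlap, 0.59 on the log2 scale, and P4HA2 to P4HA1 a small one of -0.085, while the points of COL1A1 to COL1A2, COL4A1 to COL4A2 and LOX to COL1A2 overlap.

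Some members split the HS libraries rather than the groups. In 6 of 32 members (18.8%) HS replicate 1 exceeded HS replicate 2 by a log2 difference over 1, namely COL11A1 (3.36), PCOLCE2 (3.33), LOXL4 (2.30), COL8A1 (1.85), LOXL3 (1.33) and PLOD2 (1.07), where 2.37% of all tested genes did. COL6A5 and COL17A1 went the other way (2 members, 6.25%, against 3.61% of all tested genes). In 4 of these members, COL11A1, PCOLCE2, LOXL4 and PLOD2, the libraries fell in the order HS replicate 1, drug-loaded MNs replicate 1, drug-loaded MNs replicate 2 and HS replicate 2, an order found in 4.32% of all tested genes.

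Of the 3 left-out cartilage chains in the table, COL9A1 and COL11A2 had that order too. COL9A1, a surface chain of cartilage fibrils, was at 273 and 6.53 units in HS and at 127 and 83.3 units in drug-loaded MNs. COL11A2, a partner of COL11A1 in cartilage fibrils, was at 384 and 15.2 units in HS and at 193 and 93.1 units in drug-loaded MNs. COL9A2, at 25.8 and 0.85 units in HS and at 10.3 and 32.0 units in drug-loaded MNs, was also far apart between the HS libraries but highest in drug-loaded MNs replicate 2. Ear cartilage lies directly under the ventral dermis that was dissociated. Of 7 listed chondrocyte markers, 3 were in the table and summed to 123 and 91.7 units in HS and to 107 and 67.6 units in drug-loaded MNs, most of it SOX9, while MATN1 was at most 2.51 units in any library. SOX9, at 113 and 90.7 units in HS and at 105 and 65.9 units in drug-loaded MNs, and MATN1 did not have the order of COL9A1. Of the 3, MATN3, a matrix protein of cartilage, had that order. MATN3 was at 7.45 and 0.54 units in HS and at 1.36 and 1.04 units in drug-loaded MNs. Of the Schwann cell markers, S100B, which chondrocytes also express, had that order too, at 410 and 17.0 units in HS and at 204 and 98.5 units in drug-loaded MNs, while CDH19 was lowest in HS replicate 1. The part of cartilage and Schwann cells in the values of these members was not tested.

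**Figure D5:**
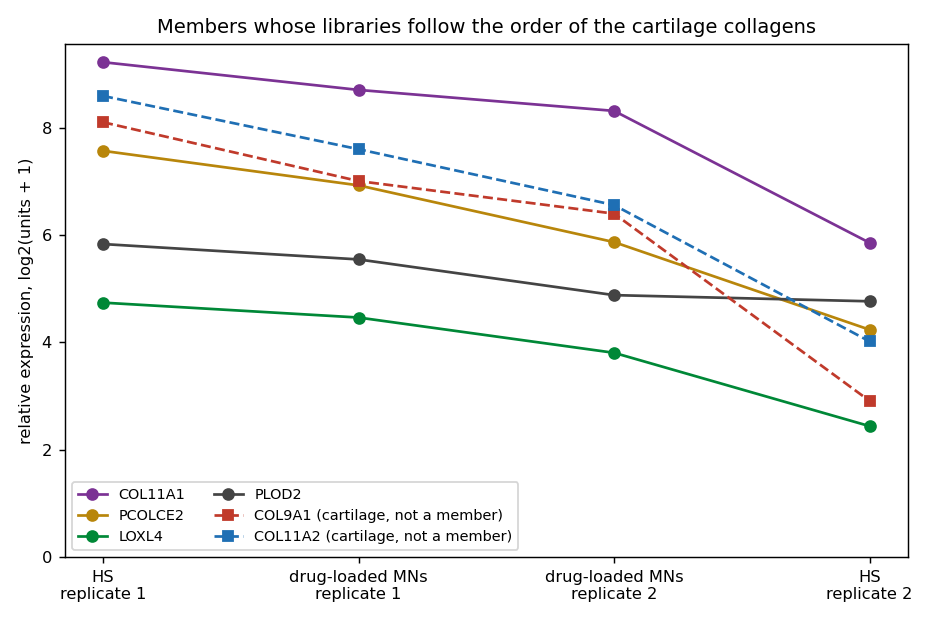
Relative expression on a log2(units + 1) axis of COL11A1, PCOLCE2, LOXL4 and PLOD2 (solid lines) and of the cartilage chains COL9A1 and COL11A2 (dashed lines) in the 4 libraries, where lines only join the points of a gene. All 6 genes are highest in HS replicate 1 and lowest in HS replicate 2, with both drug-loaded MNs libraries between.

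Other genes of collagen production and handling were taken from a list of 33, of which 27 were in the table and 25 were tested. Their median log2 fold change was 0.42, with 22 higher and 3 lower. Over all tested genes the median was 0.12 and 64.6% were above 0. At an unadjusted p under 0.05 in limma 6 were higher and 0 lower, against 7.26% and 1.39% of all tested genes. When adjusted over all genes 0 passed, against 0.0428% of all tested genes. CTSK, a lysosomal protease that cuts helical collagen, was at 310 and 244 units in HS and at 508 and 478 units in drug-loaded MNs (log2 fold change 0.84, adjusted p of 0.344 in limma). CREB3L1, a factor of the secretory pathway that controls type I collagen genes, was at 9.62 and 20.9 units in HS and at 29.7 and 39.5 units in drug-loaded MNs (log2 fold change 1.21, adjusted p of 0.411 in limma). For ADAMTS3, which cuts amino-terminal propeptides, SEC24D, a coat protein of the carriers that export procollagen, and FKBP7, a folding helper of the endoplasmic reticulum, log2 fold changes were 0.97, 0.67 and 0.79. These 5 genes were named for the smallest unadjusted p of the list in limma. In all 5 both treated libraries lay above both HS libraries, which that choice favours. Of the 25 tested genes, 13 lay above in both treated libraries and 3 below. Over all tested genes these shares were 26.6% and 11.2%.

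The counts and medians below stand beside 64.6% of all tested genes above 0 and their median of 0.12. Within this list, 8 of the 9 genes of prolyl 3-hydroxylation and folding were above 0, with a median of 0.42. The exception, named after its value was seen, was P3H2, a prolyl 3-hydroxylase known from basement membrane collagen, which was at 82.4 and 88.1 units in HS and at 63.6 and 69.3 units in drug-loaded MNs (log2 fold change -0.36, adjusted p of 0.741 in limma). The 5 export genes had a median of 0.55, with 4 above 0. The 6 collagen receptors had a median of 0.30, and 0 of them had an unadjusted p under 0.05 in limma. The 4 genes of uptake and breakdown had a median of 0.31, and all 4 were above 0.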

How the data were processed

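Single-cell libraries (10x Genomics 3' v2) of rabbit ear scar went through Cell Ranger (version 2.1.1 in the submitters' notes) and Seurat, run by the authors, with cells filtered and a correction for technical differences between samples mentioned. Doublet treatment was not stated, and the build was unclear, since the notes name mm10 while the gene IDs are of rabbit. The deposited signal is 1 value per gene and library. Although named for FPKM, each column summed to 10000, and how cells were combined was not stated. Low values were not whole multiples of a step (18.6% to 21.7% within 0.1), so no count model was run.

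Values were rescaled to 1000000 per library, and a mean of 1 unit or more was required (9348 genes). Log2(units + 1), which understates changes of low genes, was fitted with lmFit and eBayes with trend in limma 3.58.1 under R 4.3.3, with Benjamini-Hochberg adjustment over all tested genes and a two-sided threshold of 0.05. The fit was run on simulated data with planted changes, and how many of them it called is not reported here. Members, lists and tests were chosen with earlier results of these data known. Values were given for the paired chains, for members with an unadjusted p under 0.05, for the 3 largest changes each way without overlap and for the highest member of each class; further members were named after their values were seen. Promoter and protein features were not analysed here. Alternatives were other scalings, pseudocounts, filters, eBayes without trend, a replicate block and leaving out each library.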

Additional observations from a re-analysis of the deposited data

How the results depend on the processing

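Over all genes, 4 passed the adjusted threshold. This became 0 with scaling by median ratio, by quantiles or by a total without abundant genes, with a pseudocount of 5 and with no filter, 1 for eBayes without trend, 4990 under scaling to the fibroblast markers, which was added after seeing the data, and 0 to 38 with 1 library left out. The number of members past it (0) was 1 under scaling to the fibroblast markers and 0 to 1 with 1 library left out. With the replicate number as a block it was 10, and 241 over all genes (2.58%). Same-numbered libraries share only a number, their deviations correlated at 0.22 across genes, and 2 pairs cannot show a pairing. At an unadjusted p under 0.05 in limma, scaling to the fibroblast markers gave 0.257% of all tested genes higher and 62% lower. The members' counts under that scaling, given next, stand beside these shares. The count of 16 members at an unadjusted p under 0.05 was 4 under scaling to the fibroblast markers (1 higher, 3 lower) and 9 to 18 with 1 library left out, where 3.94% to 12.7% of all tested genes were higher and, without HS replicate 2, 2 of the members called were lower.

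The members' median of 0.70 was 0.56 under median ratio scaling, 0.59 under quantile normalization, 0.59 with a pseudocount of 5 and -0.23 under scaling to the fibroblast markers. For other chains it was 0.54, 0.57 and 0.58 under the same scalings and pseudocount, 0.61 without filter, and 0.36 to 0.71 with 1 library left out. Scaling to the fibroblast markers gave 0.051 for fibrillar, -0.27 for basement membrane, -0.27 for other chains and -0.36 for enzymes. With 1 library left out, fibrillar medians ranged from 0.87 to 1.16 and enzyme medians from 0.18 to 0.83. The cause was not tested.

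Of 32 members, 22 kept their direction in all alternatives other than the scaling to the fibroblast markers. The other 10 changed sign with 1 library left out, with log2 fold changes from -0.52 to 0.63 for COL17A1 (also -0.092 under median ratio scaling), -0.054 to 0.72 for COL4A3, -0.20 to 0.68 for COL4A6, -0.021 to 1.31 for LOXL3, -0.605 to 1.69 for LOXL4, -1.17 to 2.16 for PCOLCE2, -0.62 to 0.45 for PLOD2, -0.71 to 2.65 for COL11A1, -0.019 to 0.95 for COL25A1 and -0.54 to 0.36 for COL28A1. With a minimum mean of 5 units, 28 members were tested. What depth limits could not be measured.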
